A study of Homo sapiens with 12 samples.

Results

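Messenger RNA of 35 genes of the unfolded protein response and the endoplasmic reticulum (ER) folding machinery was followed in PANC1 and BXPC3, established human cell lines of pancreatic ductal adenocarcinoma, embedded in hydrogels. The members were chosen by symbol from knowledge of the pathway, with earlier results of these data known. All 35 had a row among the 16299 genes of the deposited table and passed the filter of at least 1 RPKM in at least 2 libraries. The series asks how the physical matrix around this tumour relates to its biology. The groups were PANC1 in 7.5% gelatin methacryloyl (GelMA), PANC1 in 5% GelMA, PANC1 in collagen, BXPC3 in 7.5% GelMA, BXPC3 in 5% GelMA and BXPC3 in collagen, with 2 libraries each. GelMA is gelatin carrying methacryloyl groups through which it can be cross-linked into a gel. No drug, knockout or other agent was applied in any group, as far as the labels say. PANC1 is poorly differentiated, and BXPC3 keeps an epithelial character and has lost SMAD4. Each stands for 1 tumour, so a difference between them holds for these lines alone. The sources used here give neither gel stiffness, culture time nor whether replicates were separate cultures, so p-values measure only the spread between libraries, which may be technical.

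The ER folds and oxidises proteins bound for secretion or the membrane. When unfolded proteins build up there, the sensor kinases IRE1 and PERK and the membrane-bound factor ATF6 raise the supply of chaperones, slow translation and send misfolded proteins for degradation. Exocrine pancreas is a tissue of heavy secretion, and this response is known to be active in it and in tumours derived from it. The mRNA levels described here do not show whether a sensor was active, and values per gene do not separate the spliced and unspliced forms of XBP1.

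The libraries were checked before the members were compared. SMAD4 lay between 3.94 and 4.55 log2 RPKM in PANC1 and between -5.92 and -5.35 in BXPC3, so the line labels and this gene stood together in all 12 libraries. Keratins 8, 18 and 19 were at 9.64 log2 RPKM or more in every library, and all 5 epithelial markers were detected in both lines. Among markers of other cell types, COL1A1 reached 8.71 log2 RPKM in PANC1 and 3.47 in BXPC3, while the detected immune and endothelial markers stayed at or below 1.44. Across genes, the correlation between replicates of 1 group was 0.9922 to 0.9950. In bulk RNA of this kind, fewer cells of a type and less RNA per cell cannot be told apart.

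The promoters are shown first, because the response is known to act on some of these genes through short upstream elements. The ER stress response element, ERSE, was searched as CCAAT, 9 bases of any kind and CCACG. Its shorter form, ERSE-II, was searched as ATTGG, 1 base of any kind and CCACG. RefSeq windows on GRCh38.p14, from 250 bases before to 50 after each start, were matched by symbol for 32 of the 35 members, and both strands were read. ERSE was found in 8 of the 32 members (25.0%), against 25 of 27305 genes with a window (0.092%). ERSE-II was found in 3 members (9.4%), against 19 genes (0.07%). The core of the unfolded protein response element, TGACGTGG, occurred in HYOU1 among the members (3.1%) and in 253 genes (0.927%), and in HYOU1 it overlapped an ERSE-II. The amino acid response motif CARE, searched as TGATG, 1 base of any kind and AA, occurred in CREB3L2 and HERPUD1 (6.2% of members) and in 1217 genes (4.457%). The members were chosen as known genes of this response and are counted among all genes too. A higher share among them follows from that choice and is not a test. A match is a description of letters and not a proven site. Only exact matches were counted, so near copies are not marked and a missing match does not show that an element is absent.

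The stretches below lie upstream of the start in RefSeq and in GENCODE 29, run in the direction of transcription, and carry the ERSE or ERSE-II match in capitals, while the CARE match of HERPUD1 is not marked. They belong to the master chaperone HSPA5 (chr9:125241344-125241593, minus strand), the degradation factor HERPUD1 (chr16:56931892-56932047, plus strand) and the chaperone partner SDF2L1 (chr22:21642052-21642260, plus strand). They are shown because HSPA5 and HERPUD1 were called lower in GelMA in PANC1 and not called in BXPC3, whereas SDF2L1 was called higher in both lines.
HSPA5: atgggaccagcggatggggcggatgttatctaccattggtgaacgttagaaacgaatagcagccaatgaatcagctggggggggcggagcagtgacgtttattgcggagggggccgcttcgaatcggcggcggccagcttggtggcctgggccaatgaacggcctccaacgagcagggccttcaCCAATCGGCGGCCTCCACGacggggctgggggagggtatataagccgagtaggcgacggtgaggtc
HERPUD1: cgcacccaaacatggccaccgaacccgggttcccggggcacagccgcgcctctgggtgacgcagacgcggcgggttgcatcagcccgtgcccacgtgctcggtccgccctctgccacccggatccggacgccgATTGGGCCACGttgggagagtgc
SDF2L1: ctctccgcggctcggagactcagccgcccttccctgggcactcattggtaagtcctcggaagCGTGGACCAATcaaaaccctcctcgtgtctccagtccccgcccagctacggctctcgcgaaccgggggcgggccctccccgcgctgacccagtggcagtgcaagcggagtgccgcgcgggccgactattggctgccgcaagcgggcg

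The matches of the other members are given so that the variable bases can be compared, with the fixed letters in capitals and each written in the orientation of the motif.
CALR: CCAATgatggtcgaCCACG
CANX: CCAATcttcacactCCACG
CRELD2: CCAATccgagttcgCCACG
ERO1B: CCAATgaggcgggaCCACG
HSP90B1, distal: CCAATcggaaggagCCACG
HSP90B1, proximal: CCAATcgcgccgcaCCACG
PDIA6: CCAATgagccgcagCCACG
XBP1: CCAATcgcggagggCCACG
HYOU1, at both of its matches: ATTGGaCCACG
Counted from the RefSeq start, with bases before it negative, the match in HSPA5 began at -66, that in XBP1 at -52, that in SDF2L1 at -188 and that in HERPUD1 at -117.

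GelMA was set against collagen first, within each line, with the mean of the 5% and 7.5% groups on the GelMA side. In PANC1, 19 of the 35 members fell, 1 rose and 15 did not pass the test in GelMA. The median difference over the members was -0.14 on the log2 scale, where it was -0.01 over all 15794 tested genes. Of all tested genes, 55.1% were called in this comparison, 27.7% higher and 27.4% lower. In BXPC3, 10 members rose, 8 fell and 17 did not pass, with a median difference of 0.03 beside 0.01 over all genes. There 36.1% of tested genes were called, with 19.4% higher and 16.7% lower. These shares are the background for the GelMA counts by role and by list below. The difference between the lines was tested as an interaction, the effect in PANC1 minus that in BXPC3, and 18 members were lower and 1 was higher on it, where 39.1% of tested genes were called and 20.6% were lower. A gene was called at a Benjamini-Hochberg adjusted p under 0.05 in limma, and errors of differences are standard errors of that fit.

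**Figure D1:**
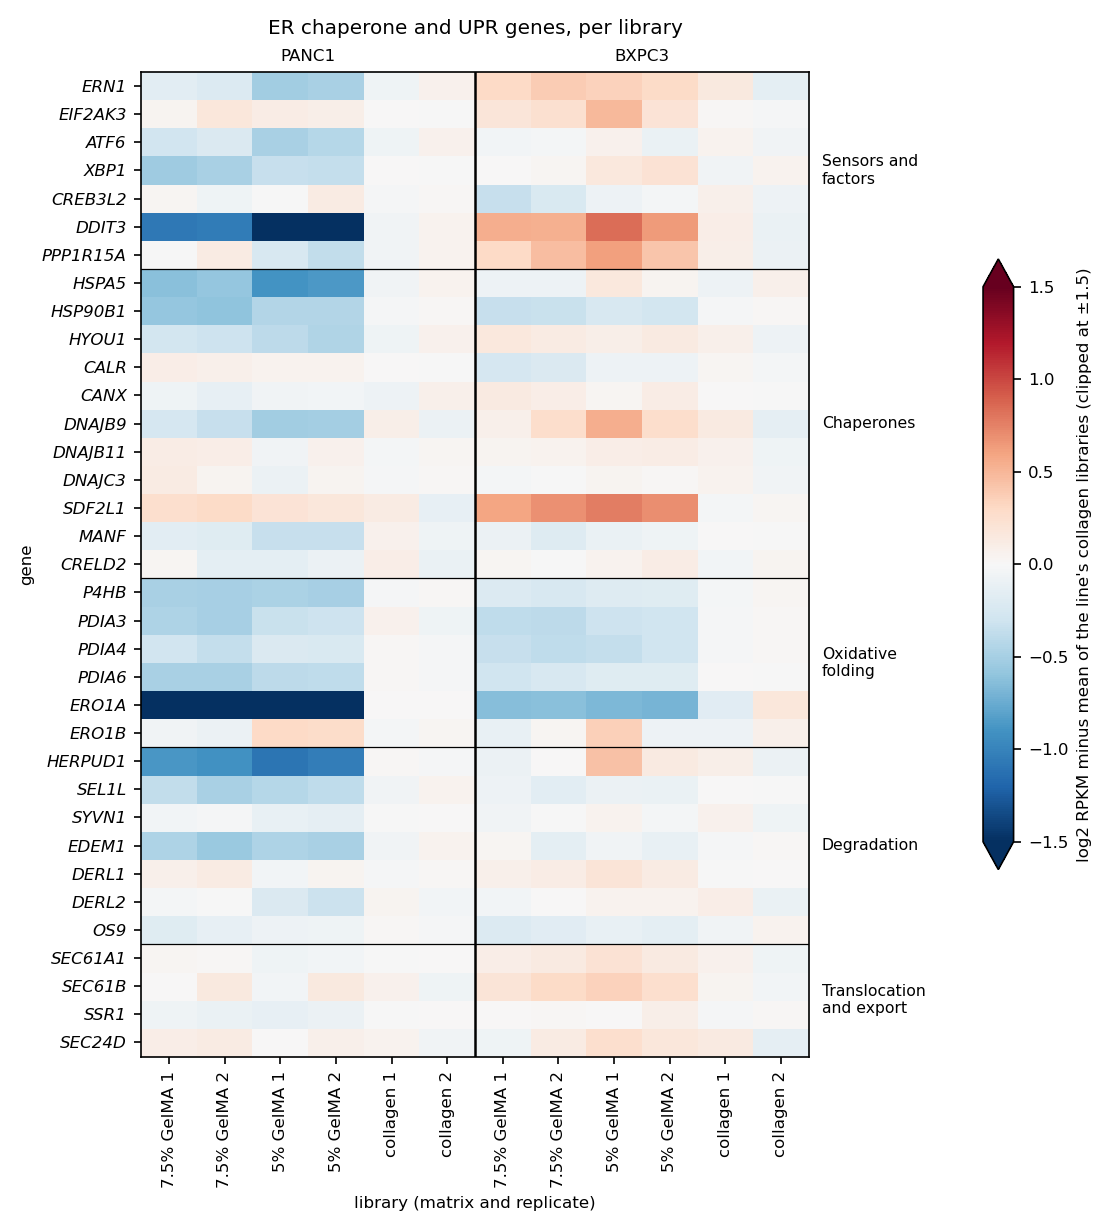
Each cell is the log2 RPKM of a gene in a library minus the mean of the 2 collagen libraries of the same line, with PANC1 on the left, BXPC3 on the right and colours clipped at 1.5 in each direction. DDIT3, HERPUD1, HSPA5 and ERO1A are blue in the 4 GelMA libraries of PANC1, while in BXPC3 DDIT3 and SDF2L1 are red and ERO1A is blue.

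Sorted by their calls in both lines, 7 members fell in both (HSP90B1, P4HB, PDIA3, PDIA4, PDIA6, ERO1A and OS9) and 1, SDF2L1, rose in both. ERN1, XBP1, DDIT3 and DNAJB9 fell in PANC1 and rose in BXPC3. Of these, only DDIT3 kept both calls in every alternative run, though all of them passed the interaction test. Another 8 passed as lower in PANC1 and did not pass in BXPC3 (ATF6, HSPA5, HYOU1, MANF, HERPUD1, SEL1L, EDEM1 and SSR1), of which 7 also passed the interaction test, MANF being the exception (-0.14 ± 0.06, adjusted p = 0.0733) and SSR1 passing it in 6 of 20 alternatives. In BXPC3, 5 others passed as higher (EIF2AK3, PPP1R15A, DERL1, SEC61A1 and SEC61B) and CALR passed as lower, and these did not pass in PANC1. Of these 6, PPP1R15A, CALR and SEC61A1 also passed the interaction test, SEC61A1 missing it in 12 of 20 alternatives. EIF2AK3 (adjusted p = 0.243), DERL1 (-0.07 ± 0.05, adjusted p = 0.258) and SEC61B (-0.20 ± 0.09, adjusted p = 0.112) did not pass it, so their effects were not shown to differ between the lines. The other 9 members passed in neither line.

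**Figure D2:**
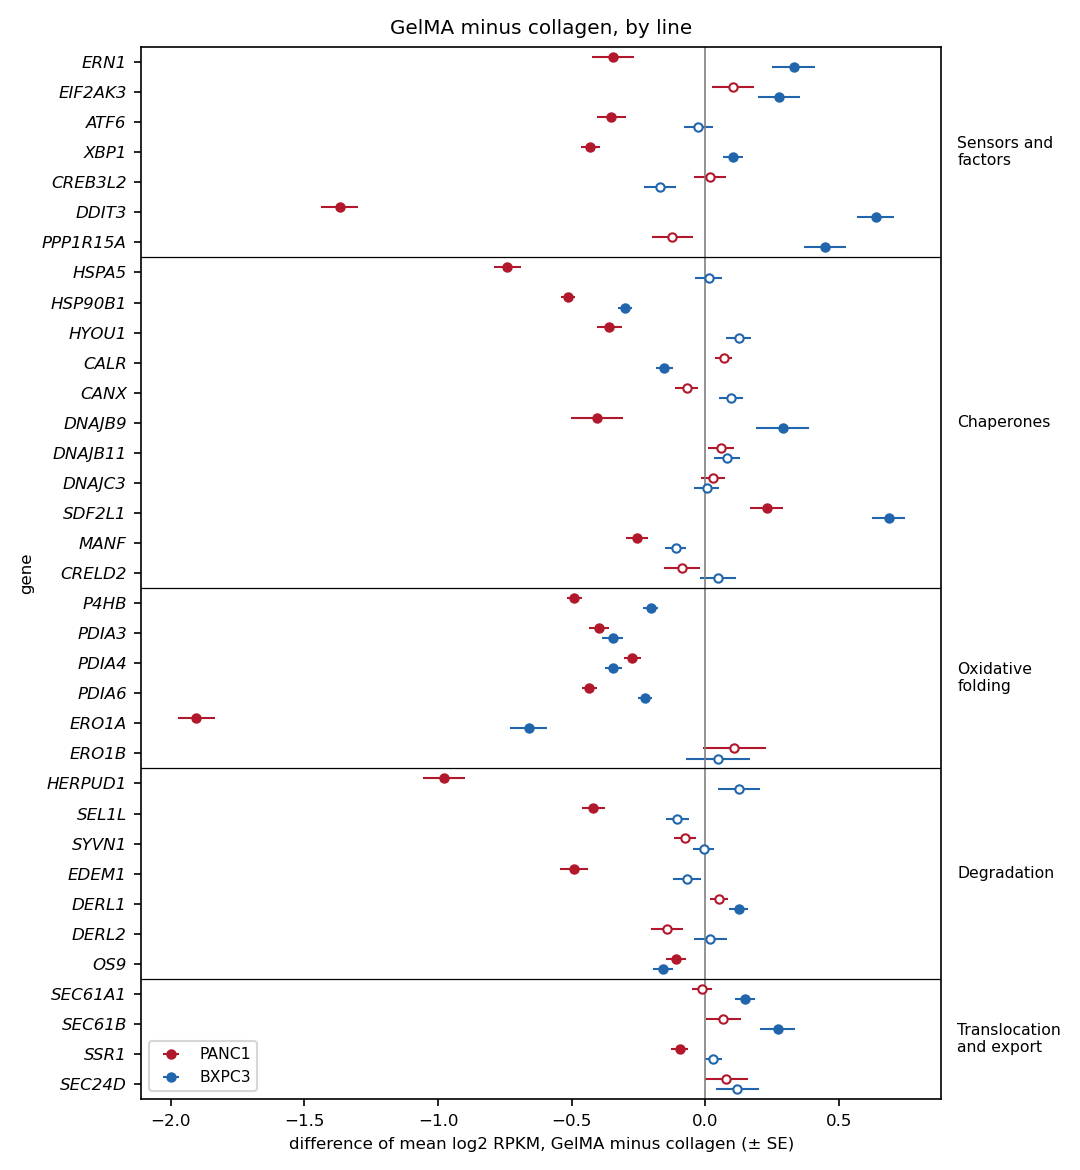
Points are differences of mean log2 RPKM between GelMA (4 libraries) and collagen (2 libraries) with standard errors, PANC1 in red above BXPC3 in blue for each gene; filled points passed at an adjusted p under 0.05. The 5 called genes of oxidative folding lie left of 0 in both lines, whereas DDIT3 lies at -1.37 in PANC1 and 0.64 in BXPC3.

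Of the 7 stress sensors and their transcription factors, ERN1, XBP1 and DDIT3 were called lower in PANC1 and higher in BXPC3. Only DDIT3 among them kept both calls in every alternative run. In this role 4 genes fell and 0 rose in PANC1, with a median difference of -0.35, and 5 rose and 0 fell in BXPC3, with a median of 0.28. DDIT3 encodes CHOP, a transcription factor induced by the PERK branch and linked to cell death (ENSG00000175197, chr12:57516588-57521737, minus strand, GRCh38). In PANC1 its level was 5.36 and 5.38 log2 RPKM in 7.5% GelMA and 4.71 and 4.78 in 5% GelMA, against 6.37 and 6.48 in collagen. In BXPC3 it was 4.85 and 4.84 in 7.5% GelMA and 5.15 and 4.94 in 5% GelMA, against 4.41 and 4.21 in collagen. All GelMA libraries thus lay below collagen in PANC1 and above it in BXPC3, with no overlap in either line. The difference was -1.37 ± 0.07 in PANC1 (adjusted p = 2.11e-07) and 0.64 ± 0.07 in BXPC3 (adjusted p = 0.000133), and the interaction of -2.01 ± 0.10 was the largest among the members (adjusted p = 7.2e-07). DDIT3 shares 355 exon bases with MARS1, which codes for methionyl-tRNA synthetase, and 58 with MBD6, both on the opposite strand. The sources used here do not give the strand setting of the counting. Averaged over the 12 libraries, MARS1 was at 7.17 log2 RPKM and MBD6 at 5.96, above DDIT3 at 5.12. MARS1 itself differed by -0.32 in PANC1 (adjusted p = 0.000439) and by 0.21 in BXPC3 (adjusted p = 0.00883), less than DDIT3. The part of either neighbour in the values of DDIT3 was not tested.

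ERN1 encodes the sensor IRE1, whose nuclease splices the XBP1 transcript. Levels of ERN1 were 3.80 and 3.74 log2 RPKM in PANC1 in 7.5% GelMA and 3.43 and 3.46 in 5% GelMA, against 3.88 and 4.02 in collagen. In BXPC3 the values were 4.63 and 4.71 in 7.5% GelMA and 4.67 and 4.61 in 5% GelMA, against 4.47 and 4.18 in collagen. GelMA and collagen libraries did not overlap in either line, and the directions were opposite, at -0.35 ± 0.08 in PANC1 (adjusted p = 0.00432) and 0.33 ± 0.08 in BXPC3 (adjusted p = 0.00961). The interaction was -0.68 ± 0.11 (adjusted p = 0.00109). Each call rested on a collagen library: adjusted p was 0.052 in PANC1 without its second collagen library (0.00086 to 0.052 over 21 alternatives) and 0.107 in BXPC3 without its second (0.00187 to 0.107), while the interaction passed in every alternative run.

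XBP1 is the factor that drives genes of folding and degradation once spliced (ENSG00000100219, chr22:28794555-28800597, minus strand). PANC1 showed 6.14 and 6.19 log2 RPKM in 7.5% GelMA and 6.33 and 6.31 in 5% GelMA, against 6.68 and 6.66 in collagen. BXPC3 showed 6.84 and 6.86 in 7.5% GelMA and 6.99 and 7.06 in 5% GelMA, against 6.78 and 6.89 in collagen. The PANC1 groups were fully apart, and the 7.5% libraries of BXPC3 lay between its collagen libraries. XBP1 fell by 0.43 ± 0.04 in PANC1 (adjusted p = 6.73e-06). Its difference of 0.10 ± 0.04 in BXPC3 was at the edge of the test (adjusted p = 0.0499) and missed it in 15 of 21 alternatives, with adjusted p between 0.0166 and 0.396. The interaction was -0.53 ± 0.05 (adjusted p = 3.89e-05).

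ATF6 encodes the sensor that is cut in the Golgi to release a transcription factor. Its PANC1 levels were 5.49 and 5.55 log2 RPKM in 7.5% GelMA and 5.29 and 5.34 in 5% GelMA, against 5.71 and 5.83 in collagen. Its BXPC3 levels were 5.62 and 5.63 in 7.5% GelMA and 5.73 and 5.57 in 5% GelMA, against 5.72 and 5.61 in collagen. The groups were apart in PANC1, where ATF6 fell by 0.35 ± 0.06 (adjusted p = 0.00044), and they overlapped in BXPC3 (-0.03 ± 0.06, adjusted p = 0.756), with an interaction of -0.33 ± 0.08 (adjusted p = 0.00892).

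EIF2AK3 encodes PERK, the kinase that slows translation, and PPP1R15A encodes GADD34, which restores it. EIF2AK3 stood at 4.02 and 4.15 log2 RPKM in PANC1 in 7.5% GelMA and 4.09 and 4.08 in 5% GelMA, against 3.99 and 3.97 in collagen. In BXPC3 it stood at 3.73 and 3.79 in 7.5% GelMA and 4.05 and 3.76 in 5% GelMA, against 3.57 and 3.54 in collagen. All GelMA libraries were above collagen in both lines, but only the BXPC3 difference passed (0.28 ± 0.08, adjusted p = 0.0204, and up to 0.108 over the alternatives; 0.10 ± 0.08 in PANC1, adjusted p = 0.293), and the difference between the lines did not (-0.17 ± 0.11, adjusted p = 0.243). PPP1R15A was at 6.98 and 7.11 in PANC1 in 7.5% GelMA and 6.74 and 6.62 in 5% GelMA, against 6.94 and 7.04 in collagen. Its BXPC3 libraries held 7.89 and 8.06 in 7.5% GelMA and 8.22 and 8.01 in 5% GelMA, against 7.69 and 7.51 in collagen. In PANC1 the 7.5% libraries overlapped the collagen range and the 5% libraries lay below it, whereas in BXPC3 every GelMA library was above collagen. PPP1R15A rose by 0.45 ± 0.08 in BXPC3 (adjusted p = 0.00171), its PANC1 difference was -0.12 ± 0.08 (adjusted p = 0.201), and the interaction was -0.57 ± 0.11 (adjusted p = 0.00247). The last gene of this role, CREB3L2, a membrane-bound factor of secretory cells, passed in neither line (0.02 ± 0.06 in PANC1 and -0.17 ± 0.06 in BXPC3).

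**Figure D3:**
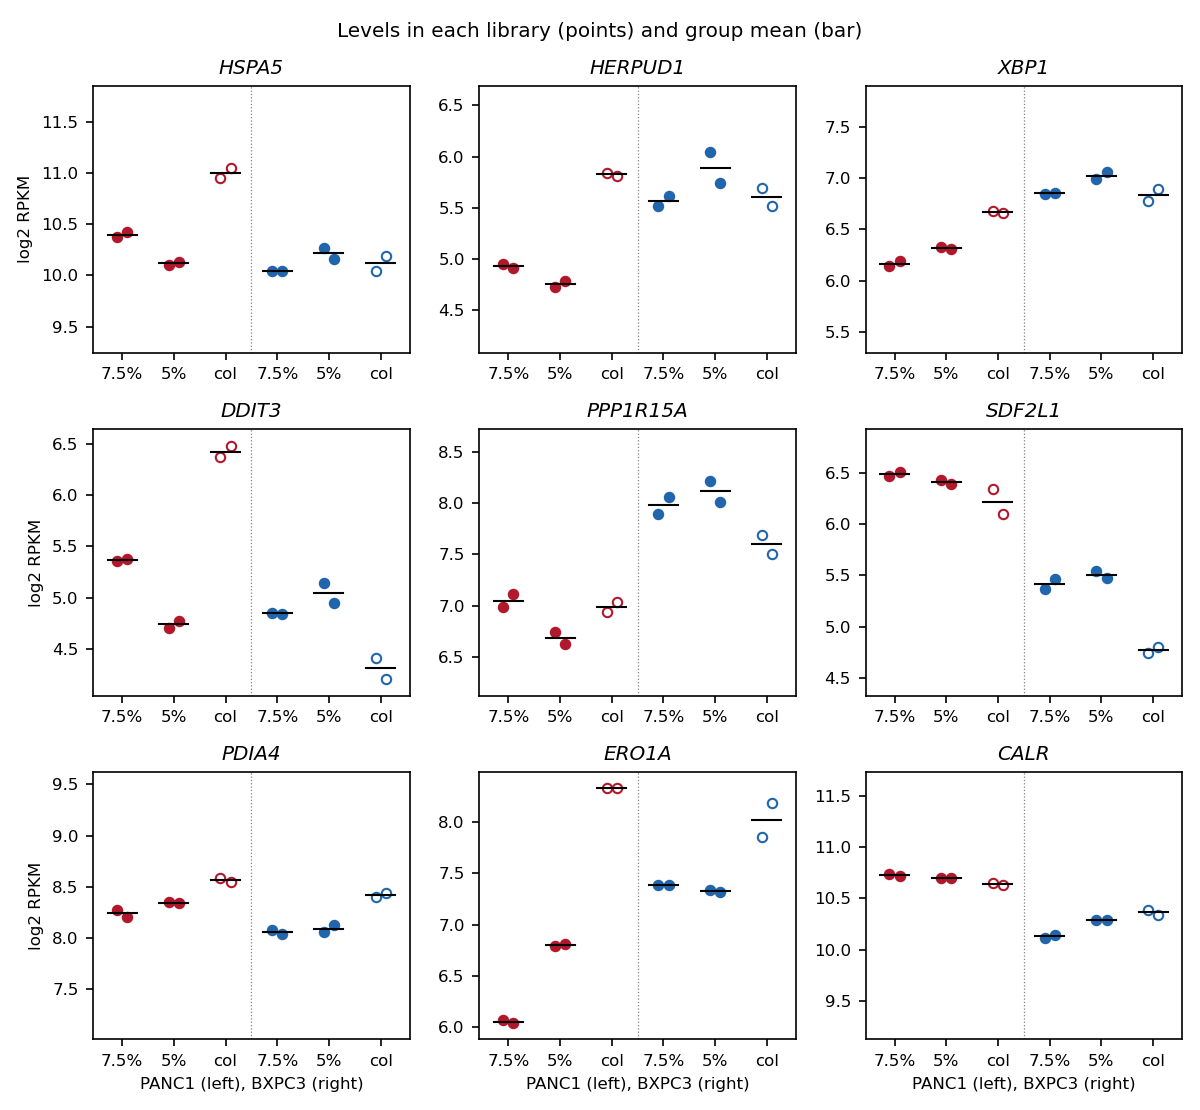
Points are the log2 RPKM of 9 members in each library, PANC1 in red and BXPC3 in blue, for 7.5% GelMA, 5% GelMA and collagen (col, open points), with bars at the mean of the 2 libraries. HSPA5, HERPUD1, XBP1 and ERO1A stand highest in collagen in PANC1, and SDF2L1 stands lowest in collagen in both lines.

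Of the 11 chaperones, their partners and the lumenal stress proteins, 5 fell and 1 rose in PANC1 (median difference -0.09), and 2 fell and 2 rose in BXPC3 (median 0.05). HSPA5 encodes BiP, the ER member of the HSP70 family that also holds the sensors inactive (ENSG00000044574, chr9:125234853-125241330, minus strand). Its promoter stretch is printed above. In PANC1 it was at 10.37 and 10.42 log2 RPKM in 7.5% GelMA and 10.10 and 10.13 in 5% GelMA, against 10.95 and 11.05 in collagen. In BXPC3 it was at 10.05 and 10.05 in 7.5% GelMA and 10.27 and 10.16 in 5% GelMA, against 10.05 and 10.19 in collagen. The PANC1 groups were separated by more than their internal spread, and the BXPC3 groups overlapped. HSPA5 ranked between 39 and 92 of all genes in a library. The values were taken as quantile normalized, which would give equal ranks equal values, as seen in several libraries. It fell by 0.74 ± 0.05 in PANC1 (adjusted p = 1.59e-06), to 0.598 of its collagen level, while its difference in BXPC3 was 0.01 ± 0.05 (adjusted p = 0.878). The interaction was -0.75 ± 0.07 (adjusted p = 3.54e-05).

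HSP90B1 encodes GRP94, the ER form of HSP90. PANC1 held 8.85 and 8.83 log2 RPKM of it in 7.5% GelMA and 8.99 and 9.0 in 5% GelMA, against 9.42 and 9.45 in collagen. BXPC3 held 8.35 and 8.36 in 7.5% GelMA and 8.46 and 8.42 in 5% GelMA, against 8.69 and 8.71 in collagen. Both lines had lower values in every GelMA library, with falls of 0.52 ± 0.03 in PANC1 (adjusted p = 2.07e-07) and 0.30 ± 0.03 in BXPC3 (adjusted p = 4.33e-05), and the fall was larger in PANC1 by 0.22 ± 0.04 (adjusted p = 0.00123).

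SDF2L1 encodes a partner of the ER DnaJ proteins that helps BiP act on its clients (ENSG00000128228, chr22:21642261-21644298, plus strand). Here PANC1 had 6.47 and 6.50 log2 RPKM in 7.5% GelMA and 6.43 and 6.39 in 5% GelMA, against 6.34 and 6.10 in collagen. BXPC3 had 5.37 and 5.46 in 7.5% GelMA and 5.54 and 5.48 in 5% GelMA, against 4.75 and 4.81 in collagen. Every GelMA library was above every collagen library of its line, by a wide gap in BXPC3 and a narrow one in PANC1. The rise of 0.69 ± 0.06 in BXPC3 (adjusted p = 5e-05) was the largest among the members there. In PANC1 the rise was 0.23 ± 0.06 (adjusted p = 0.00947), and it did not pass without the second collagen library (adjusted p = 0.122, with 0.000613 to 0.122 over the alternatives). The lines differed by -0.46 ± 0.09 (adjusted p = 0.00231).

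DNAJB9 encodes ERdj4, a co-chaperone that restrains IRE1. In PANC1 its values were 5.49 and 5.40 log2 RPKM in 7.5% GelMA and 5.23 and 5.24 in 5% GelMA, against 5.84 and 5.65 in collagen. Its values in BXPC3 were 5.03 and 5.22 in 7.5% GelMA and 5.5 and 5.22 in 5% GelMA, against 5.09 and 4.82 in collagen. The groups were apart in PANC1 and overlapped in BXPC3. It fell by 0.41 ± 0.10 in PANC1 (adjusted p = 0.00541, and 0.0658 without the first collagen library, 0.00076 to 0.0658 over the alternatives), and rose by 0.29 ± 0.10 in BXPC3 (adjusted p = 0.0426, missed in 9 of 21 alternatives, 0.0169 to 0.359). The interaction of -0.69 ± 0.14 (adjusted p = 0.00304) passed in every alternative run.

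CALR encodes calreticulin, a chaperone that binds glycoproteins. PANC1 gave 10.74 and 10.72 log2 RPKM in 7.5% GelMA and 10.70 and 10.70 in 5% GelMA, against 10.65 and 10.63 in collagen, and BXPC3 gave 10.12 and 10.15 in 7.5% GelMA and 10.29 and 10.29 in 5% GelMA, against 10.39 and 10.34 in collagen. The GelMA libraries lay just above collagen in PANC1 (0.07 ± 0.03, adjusted p = 0.09) and below it in BXPC3 (-0.15 ± 0.03, adjusted p = 0.00405), and CALR was the 1 member with a positive interaction that passed (0.22 ± 0.04, adjusted p = 0.0031). HYOU1, the ER member of the HSP110 family, fell by 0.36 ± 0.05 in PANC1 and differed by 0.12 ± 0.05 in BXPC3 (adjusted p = 0.0646). MANF, a secreted factor held in the ER by BiP, fell by 0.26 ± 0.04 in PANC1. In BXPC3 MANF did not pass, although its GelMA libraries (6.32 to 6.44 log2 RPKM) all lay below its collagen libraries (6.50 to 6.51). CANX (the membrane-bound relative of calreticulin), DNAJB11 and DNAJC3 (co-chaperones of BiP) and CRELD2 (an isomerase-like stress protein) passed in neither line, with differences between -0.09 and 0.10.

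In oxidative folding both lines moved the same way: 5 of its 6 genes fell in PANC1 and the same 5 fell in BXPC3, with median differences of -0.42 and -0.28. ERO1A is the oxidase that passes disulfide bonds to protein disulfide isomerases, and it is also known as a gene induced by low oxygen (ENSG00000197930, chr14:52639916-52695900, minus strand). Its PANC1 libraries held 6.07 and 6.04 log2 RPKM in 7.5% GelMA and 6.79 and 6.81 in 5% GelMA, against 8.33 and 8.33 in collagen. Its BXPC3 libraries held 7.38 and 7.39 in 7.5% GelMA and 7.34 and 7.32 in 5% GelMA, against 7.85 and 8.18 in collagen. PANC1 showed a step at each matrix, with 7.5% GelMA the lowest, and BXPC3 showed GelMA below collagen with little between the concentrations. ERO1A fell by 1.90 ± 0.07 in PANC1 (adjusted p = 3.54e-08), to 0.267 of its collagen level, and by 0.66 ± 0.07 in BXPC3 (adjusted p = 0.000104), to 0.632. The lines differed by -1.24 ± 0.10 (adjusted p = 1.11e-05). A list of 15 hypoxia response genes, also chosen with earlier results of these data known, moved with it. In PANC1 15 fell, including CA9 (-3.97 ± 0.40) and NDRG1 (-3.13 ± 0.16). In BXPC3 13 fell, including CA9 (-6.98 ± 0.40) and EGLN3 (-3.51 ± 0.23), with 0 higher in either line. The part of that response in the fall of ERO1A was not tested.

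The disulfide isomerases fell with smaller differences. PDIA4, also called ERp72, was at 8.28 and 8.21 log2 RPKM in PANC1 in 7.5% GelMA and 8.35 and 8.34 in 5% GelMA, against 8.59 and 8.55 in collagen, and at 8.07 and 8.04 in BXPC3 in 7.5% GelMA and 8.06 and 8.12 in 5% GelMA, against 8.40 and 8.44 in collagen. The libraries did not overlap in either line, and the falls of 0.27 ± 0.03 in PANC1 and 0.34 ± 0.03 in BXPC3 did not differ by the interaction test (0.07 ± 0.05, adjusted p = 0.241). PDIA3, the isomerase that works with calreticulin and calnexin, read 8.44 and 8.40 in PANC1 in 7.5% GelMA and 8.57 and 8.59 in 5% GelMA, against 8.97 and 8.83 in collagen. Its BXPC3 readings were 8.66 and 8.65 in 7.5% GelMA and 8.73 and 8.74 in 5% GelMA, against 9.02 and 9.06 in collagen. Again every GelMA library was lower, by 0.40 ± 0.04 in PANC1 and 0.35 ± 0.04 in BXPC3, with an interaction of -0.05 ± 0.05 (adjusted p = 0.473).

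PDIA6, an isomerase that acts with BiP and on IRE1, was measured at 7.90 and 7.91 log2 RPKM in PANC1 in 7.5% GelMA and 8.0 and 8.01 in 5% GelMA, against 8.41 and 8.37 in collagen. The BXPC3 measurements were 6.45 and 6.50 in 7.5% GelMA and 6.57 and 6.56 in 5% GelMA, against 6.75 and 6.74 in collagen. It fell by 0.43 ± 0.03 in PANC1 and by 0.22 ± 0.03 in BXPC3, without overlap of libraries, and the fall was larger in PANC1 (-0.21 ± 0.04, adjusted p = 0.00171). P4HB, the abundant founding isomerase and a subunit of collagen prolyl hydroxylase, fell by 0.49 ± 0.03 in PANC1 and 0.21 ± 0.03 in BXPC3, also with a larger fall in PANC1 (-0.28 ± 0.04, adjusted p = 0.000483). ERO1B, the relative of ERO1A found in secretory tissues, passed in neither line (0.11 ± 0.12 in PANC1 and 0.05 ± 0.12 in BXPC3).

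Among the 7 genes of ER-associated degradation, 4 fell and 0 rose in PANC1 (median difference -0.14), and 1 fell and 1 rose in BXPC3 (median -0.01). Of all tested genes, 27.4% fell in PANC1, and 16.7% fell and 19.4% rose in BXPC3, so the BXPC3 counts were near that background. HERPUD1 encodes a membrane scaffold of the degradation complex and is a classical target of the response (ENSG00000051108, chr16:56932048-56944863, plus strand). Its levels in PANC1 were 4.95 and 4.92 log2 RPKM in 7.5% GelMA and 4.73 and 4.78 in 5% GelMA, against 5.84 and 5.81 in collagen. Its levels in BXPC3 were 5.52 and 5.61 in 7.5% GelMA and 6.05 and 5.74 in 5% GelMA, against 5.69 and 5.52 in collagen. The PANC1 groups were widely apart, and the BXPC3 groups overlapped. HERPUD1 fell by 0.98 ± 0.08 in PANC1 (adjusted p = 4.41e-06), to 0.507 of its collagen level, with 0.12 ± 0.08 in BXPC3 (adjusted p = 0.246) and an interaction of -1.10 ± 0.11 (adjusted p = 4.8e-05).

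EDEM1 encodes a mannosidase-like protein that marks glycoproteins for disposal. PANC1 had 5.48 and 5.39 log2 RPKM in 7.5% GelMA and 5.48 and 5.46 in 5% GelMA, against 5.89 and 6.0 in collagen, and BXPC3 had 7.17 and 6.99 in 7.5% GelMA and 7.09 and 7.03 in 5% GelMA, against 7.12 and 7.16 in collagen. Only the PANC1 groups were apart, with a fall of 0.49 ± 0.05 (adjusted p = 3.27e-05) beside -0.07 ± 0.05 in BXPC3 (adjusted p = 0.34) and an interaction of -0.42 ± 0.07 (adjusted p = 0.00158). SEL1L, the adaptor of the ubiquitin ligase, fell by 0.42 ± 0.04 in PANC1 with an interaction of -0.31 ± 0.06 (adjusted p = 0.00298). In BXPC3 SEL1L did not pass, although its GelMA libraries (5.96 to 6.04 log2 RPKM) all lay below its collagen libraries (6.11 to 6.13). SYVN1, the ligase itself, passed in neither line. OS9, a lectin of the same complex, fell by 0.11 ± 0.04 in PANC1 and 0.16 ± 0.04 in BXPC3, and DERL1, a channel protein, rose by 0.12 ± 0.03 in BXPC3. These 3 small calls did not pass in 6, 1 and 3 of 21 alternatives (adjusted p up to 0.133, 0.0838 and 0.0796).

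Translocation and export showed small differences. Of these 4 genes, SSR1, a subunit of the translocon-associated complex, fell by 0.10 ± 0.03 in PANC1, and SEC61A1 and SEC61B, subunits of the translocation channel, rose by 0.15 ± 0.04 and 0.27 ± 0.07 in BXPC3. The SSR1 call was lost in 5 of 21 alternatives (adjusted p up to 0.107), and both SEC61 calls were lost without the second collagen library of BXPC3 (adjusted p = 0.133 and 0.0918, with minima of 0.00332 and 0.00774 over the alternatives). SEC24D, a coat subunit of export vesicles, passed in neither line. The second collagen library of BXPC3 carried much of that line's count: without it 12 members passed in place of 18, the lowest count when any library was left out, and 3623 genes passed in place of 5703.

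The members with an ERSE or ERSE-II match were also described as a set. Of these 11, 6 fell and 1 rose in PANC1 in GelMA, with differences between -0.98 and 0.23 and a median of -0.36. Of the 21 members with a window and no match, 12 fell and 0 rose, with a median of -0.14. In BXPC3, 3 of the 11 fell and 2 rose (median 0.05), and 4 of the 21 fell and 7 rose (median 0.00). Of all tested genes, 27.7% rose and 27.4% fell in PANC1, and 19.4% rose and 16.7% fell in BXPC3. DDIT3 and ERO1A, the members with the lowest PANC1 differences, had no exact match in their windows, which does not show that they lack such an element.

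Each concentration was next set against collagen, and since the contrasts of a line share their collagen libraries their values are given side by side. In PANC1, 1 member rose and 17 fell in 7.5% GelMA, where 53.8% of tested genes were called, and 1 rose and 21 fell in 5% GelMA, where 46.2% were called. In BXPC3, 5 rose and 9 fell in 7.5% GelMA, with 29.8% of tested genes called, and 11 rose and 7 fell in 5% GelMA, with 29.9% called. In PANC1, DDIT3 differed from collagen by -1.06 ± 0.08 in 7.5% GelMA and by -1.68 ± 0.08 in 5% GelMA, and HSPA5 by -0.60 ± 0.06 in 7.5% GelMA and -0.88 ± 0.06 in 5% GelMA. ERO1A ran the other way, with -2.28 ± 0.08 in 7.5% GelMA and -1.53 ± 0.08 in 5% GelMA.

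The concentrations were then compared with each other. In PANC1, 6 members were higher and 5 lower in 7.5% than in 5% GelMA, with a median difference of 0.06 beside 0.01 over all genes, and 18.7% of tested genes were called. DDIT3 rose by 0.63 ± 0.08 (adjusted p = 0.000622), and its libraries at 7.5% were at least 5.36 log2 RPKM where those at 5% were at most 4.78. ERO1A fell by 0.74 ± 0.08 (adjusted p = 0.000243). Both were called in all 21 alternatives. DERL2, a relative of DERL1, was at 5.15 and 5.17 log2 RPKM in 7.5% GelMA and 4.95 and 4.85 in 5% GelMA, beside 5.21 and 5.13 in collagen. The libraries at the higher concentration lay within the collagen range, and those at the lower concentration below it.

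The other calls between the concentrations in PANC1 were small and did not hold in every alternative. Higher in 7.5% GelMA were PPP1R15A (0.36 ± 0.09), ERN1 (0.33 ± 0.09), HSPA5 (0.28 ± 0.06), DERL2 (0.26 ± 0.07) and MANF (0.17 ± 0.05), and lower were PDIA3 (-0.16 ± 0.04), XBP1 (-0.15 ± 0.04), HSP90B1 (-0.15 ± 0.03) and PDIA6 (-0.10 ± 0.03), with adjusted p between 0.0067 and 0.0465. All 9 were lost in some alternative, and leaving out the first or second library of 7.5% GelMA, or the first or second of 5% GelMA, left 5, 2, 4 and 3 members called.

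**Figure D4:**
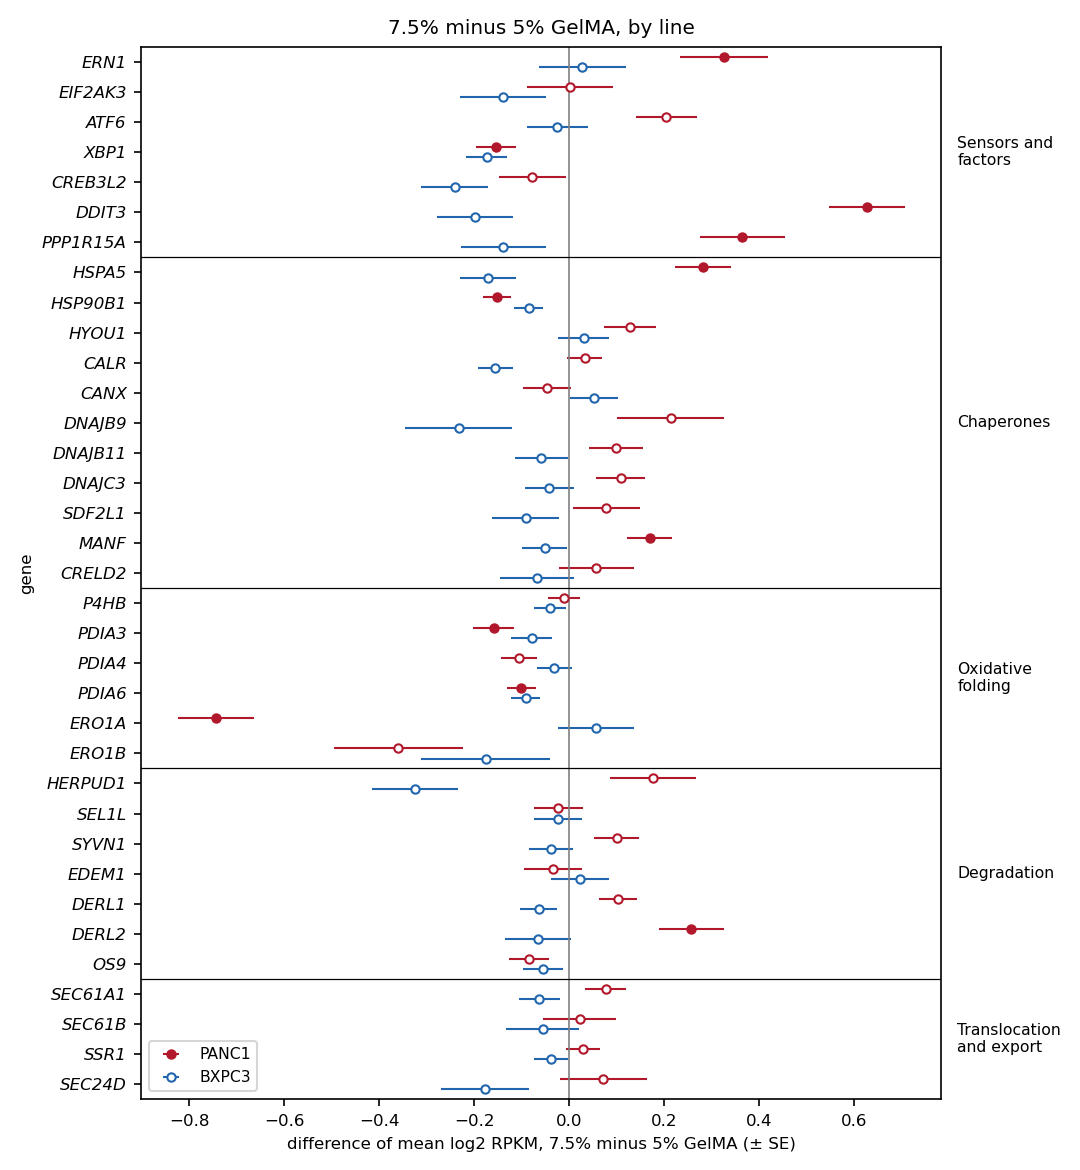
Points are differences of mean log2 RPKM between 7.5% and 5% GelMA (2 libraries each) with standard errors, PANC1 in red above BXPC3 in blue for each gene; filled points passed at an adjusted p under 0.05. DDIT3 at 0.63 and ERO1A at -0.74 stand out in PANC1, and all BXPC3 points are open, 30 of the 35 left of 0, where 48% of all tested genes had a negative difference.

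In BXPC3, 0 members passed between the concentrations in limma, where 0.0823% of tested genes were called. At an unadjusted p under 0.05 there were 8 members, all lower in 7.5% GelMA, where 4.66% of tested genes were lower at that p. Negative differences were seen in 30 of the 35 members and in 48% of tested genes, with a median of -0.06 over the members beside 0.01 over all genes. The lowest was HERPUD1 (-0.32 ± 0.09, adjusted p = 0.275), whose first 5% library stood above the other GelMA libraries.

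The concentration effect differed between the lines for 6 members, 5 of them higher in PANC1, where 8.97% of tested genes were called. DDIT3 (0.82 ± 0.11, adjusted p = 0.00251), HSPA5 (0.45 ± 0.08, adjusted p = 0.00995) and ERO1A (-0.80 ± 0.11, adjusted p = 0.00285) kept their calls in all 20 alternatives. PPP1R15A (0.50 ± 0.13, adjusted p = 0.0361), HERPUD1 (0.50 ± 0.13, adjusted p = 0.0385) and CALR (0.19 ± 0.05, adjusted p = 0.0485) lost them in 8, 10 and 10 of the 20, with adjusted p up to 0.133, 0.132 and 0.159.

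PANC1 was compared with BXPC3 over all matrices, with 6 libraries on each side. Here 20 members were higher in PANC1, 12 were lower and 3 did not pass (DERL1, SEC61A1 and SSR1). This is near the background, since 91.8% of tested genes were called, 50% higher and 41.9% lower in PANC1. The median was 0.23 over the members and 0.12 over all genes. Of the 11 chaperones and lumenal stress proteins, 10 were higher in PANC1 and 1, DNAJC3, was lower.

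**Figure D5:**
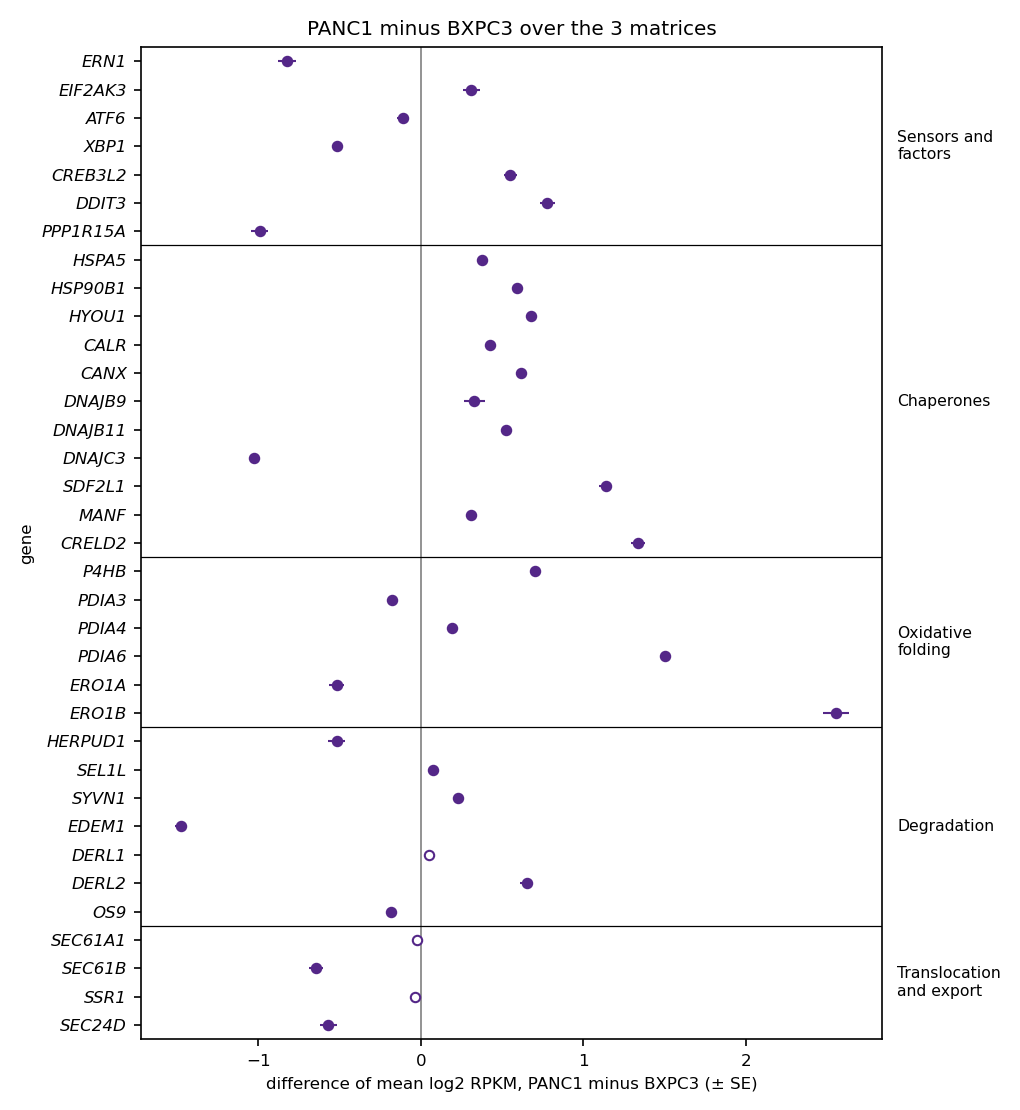
Points are differences of mean log2 RPKM between PANC1 and BXPC3 over the 3 matrices (6 libraries each) with standard errors, filled where the adjusted p was under 0.05. ERO1B lies farthest right at 2.55 and EDEM1 farthest left at -1.48, and 10 of the 11 chaperones lie right of 0.

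ERO1B showed the widest gap between the lines. PANC1 held 4.01 and 3.98 log2 RPKM in 7.5% GelMA, 4.37 and 4.34 in 5% GelMA and 4.04 and 4.10 in collagen. BXPC3 held 1.44 and 1.59 in 7.5% GelMA, 1.91 and 1.47 in 5% GelMA and 1.48 and 1.63 in collagen. Every PANC1 library was above every BXPC3 library, and the difference was 2.55 ± 0.08 (adjusted p = 1.1e-10), a ratio of 5.87. Among members higher in PANC1, PDIA6 followed at 1.51 ± 0.02 (adjusted p = 1.19e-13), from the levels given above. CRELD2 came next among these, at 1.34 ± 0.05 (adjusted p = 2.34e-10). Its PANC1 libraries read 5.46 and 5.30 in 7.5% GelMA, 5.30 and 5.35 in 5% GelMA and 5.54 and 5.34 in collagen. Its BXPC3 libraries read 4.05 and 4.01 in 7.5% GelMA, 4.07 and 4.12 in 5% GelMA and 3.97 and 4.06 in collagen. The lines did not overlap for this gene, and the matrices differed little within each. SDF2L1 was higher in PANC1 by 1.14 ± 0.04 and DDIT3 by 0.78 ± 0.05, although the DDIT3 libraries of the lines overlapped, since PANC1 in 5% GelMA lay below BXPC3 in GelMA.

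Lower in PANC1 were EDEM1 (-1.48 ± 0.04, adjusted p = 1.54e-11), DNAJC3 (-1.02 ± 0.03, adjusted p = 7.79e-11), PPP1R15A (-0.99 ± 0.05, adjusted p = 9.24e-09) and ERN1 (-0.82 ± 0.05, adjusted p = 5.94e-08). DNAJC3 encodes an inhibitor of PERK that also serves BiP. It was at 5.5 and 5.41 log2 RPKM in PANC1 in 7.5% GelMA, 5.28 and 5.40 in 5% GelMA and 5.35 and 5.39 in collagen. The BXPC3 libraries were at 6.38 and 6.40 in 7.5% GelMA, 6.45 and 6.42 in 5% GelMA and 6.46 and 6.36 in collagen. All PANC1 libraries lay below all BXPC3 libraries, with matrices close together in each line. Of the 35 members, 14 had every PANC1 library above every BXPC3 library, 7 had every PANC1 library below, and 14 overlapped. Of all tested genes, 39.1% had every PANC1 library above and 32.7% had every PANC1 library below. Levels per gene length, averaged over the 12 libraries, ran from 10.47 log2 RPKM for CALR and 10.32 for HSPA5 to 3.90 for EIF2AK3 and 2.86 for ERO1B.

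Other genes of the pathway, from lists written with the members and with earlier results of these data known, did not all follow them. The background in GelMA was 27.7% of tested genes higher and 27.4% lower in PANC1, and 19.4% higher and 16.7% lower in BXPC3. Of 17 further signalling genes, 6 rose and 5 fell in PANC1 in GelMA and 9 rose and 2 fell in BXPC3. TRIB3, a pseudokinase downstream of CHOP and ATF4, fell by 1.05 ± 0.13 in PANC1 (adjusted p = 0.000104) and rose by 0.99 ± 0.13 in BXPC3 (adjusted p = 0.000456), the same pair of directions as DDIT3. WFS1, an ER membrane protein, rose by 0.81 ± 0.07 in PANC1 and by 0.48 ± 0.07 in BXPC3. ATF4, the factor translated when PERK acts, was chosen for mention after its values were seen, and differed by -0.46 ± 0.04 in PANC1 (adjusted p = 5.68e-06) and 0.16 ± 0.04 in BXPC3 (adjusted p = 0.00802). In a list of 16 genes of the ATF4 amino acid response, which other kinases than PERK also drive, 15 fell and 0 rose in PANC1 (median -1.01), including ASNS (-2.03 ± 0.29) and VLDLR (-1.84 ± 0.11). In BXPC3, 6 of them rose and 3 fell (median 0.14), VLDLR among those that fell (-1.21 ± 0.11). Between the concentrations in PANC1, 12 of these 16 were higher and 1 was lower in 7.5% GelMA, where 9.16% of tested genes were higher and 9.56% lower. DDIT3 was higher there too, and the part of that response in the DDIT3 values was not tested.

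Of 31 further ER folding genes, 6 rose and 15 fell in PANC1 (median -0.16) and 4 rose and 10 fell in BXPC3 (median -0.09). FKBP10, a prolyl isomerase that folds collagen, fell in both lines (-0.64 ± 0.03 in PANC1 and -0.57 ± 0.03 in BXPC3), CLGN fell in PANC1 (-0.94 ± 0.12), and the thioredoxin-like TMX4 rose in PANC1 (0.75 ± 0.05). Of 24 further degradation genes, 7 rose and 5 fell in PANC1 and 7 rose and 3 fell in BXPC3, where the extraction ATPase VCP (0.32 ± 0.03) and its cofactor NPLOC4 (0.26 ± 0.03) were highest, VCP being called higher in PANC1 as well (0.09 ± 0.03). Of 22 further translocation and glycosylation genes, 7 rose and 8 fell in PANC1 and 2 rose and 5 fell in BXPC3. Of 18 export genes, 6 rose and 4 fell in PANC1 and 1 rose and 5 fell in BXPC3. With 55.1% of all tested genes called in PANC1 and 36.1% in BXPC3, the degradation, translocation and export counts are not read as results about these lists. SEC23B, a coat subunit, rose in both lines (0.56 ± 0.05 in PANC1 and 0.25 ± 0.05 in BXPC3), and the cargo receptor LMAN1 fell in both (-0.54 ± 0.03 in PANC1 and -0.20 ± 0.03 in BXPC3).

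Chaperones outside the ER gave another pattern. Of 15 heat shock genes of the cytosol and mitochondria, 6 rose and 6 fell in PANC1 (median -0.10), among them HSPA1A (0.59 ± 0.15) and the mitochondrial protease LONP1 (-0.92 ± 0.04). In BXPC3, 12 rose and 0 fell (median 0.23), led by HSPB1 (0.52 ± 0.04) and HSPA9 (0.37 ± 0.04). Among all tested genes, 27.7% rose and 27.4% fell in PANC1, and 19.4% rose and 16.7% fell in BXPC3. Of 13 mitochondrially encoded transcripts, read as a sign of RNA quality, 8 rose and 0 fell in PANC1 in GelMA (median 0.24), and 1 rose and 1 fell in BXPC3. Their summed level was 73700 to 74200 RPKM in PANC1 in 7.5% GelMA and 72800 to 73100 in 5% GelMA, against 65200 to 65400 in collagen. In BXPC3 it was 72400 to 72600 in 7.5% GelMA and 72500 to 72600 in 5% GelMA, against 70400 to 71900 in collagen. Since the values were taken as quantile normalized, these sums follow ranks and do not measure the mitochondrial share of the RNA. The fibroblast markers with a value here, COL1A1 and COL3A1 (2 of 6 listed), also moved with the matrix in PANC1, where they summed to 363 to 426 RPKM in 7.5% GelMA and 222 to 227 in 5% GelMA, against 141 to 147 in collagen. In BXPC3 their sum lay between 15.3 and 16.1 RPKM in every group. The part of both lists in the PANC1 differences of the members was not tested.

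Some members could share reads with neighbours. In GENCODE 29, 14 of the 35 overlap exons of another gene in the table, all on the opposite strand apart from SYVN1, which shares 398 exon bases with FAU on its own strand and 356 with MRPL49 on the other. P4HB shares 529 bases with an antisense transcript, PDIA6 1033 with ATP6V1C2, SEC61A1 344 with RUVBL1, EIF2AK3 38 with EIF2AK3-DT and DNAJB9 183 with THAP5. Without the strand setting such reads cannot be told apart. Like DNAJB9, THAP5 fell in PANC1 (-0.39, adjusted p = 0.000162), while PNPLA8, another neighbour of DNAJB9, did not pass there. RUVBL1 rose in BXPC3 (0.13, adjusted p = 0.0127) as SEC61A1 did, but fell in PANC1 (-0.44), where SEC61A1 did not pass. EIF2AK3-DT rose in BXPC3 (0.59) and fell in PANC1 (-0.63). The part of these neighbours in the member values was not tested. Pseudogenes named after XBP1, PDIA3 and SSR1 exist, so values of these 3 members are uncertain to the extent that reads fit either copy. The search went by the full symbol, so copies of other members under other names would have been missed.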

How the data were processed

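Poly-A RNA was sequenced from 12 libraries, 2 for each of 6 groups. Per the submitters' processing notes, HISAT2 2.1.0 and HTSeq were used with GRCh38 (hg38); the sources used here give neither settings nor strand. The values deposited by the authors were log2 RPKM (reads scaled by gene length and library size). Sorted values were equal within 0.05 across libraries for 13917 of 16299 ranks, so they were taken as quantile normalized, which removes a change shared by most genes. Depth is unknown, and no counting interval could be given.

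The test took 15794 genes that reached 1 RPKM in 2 or more libraries, leaving out 505, and used limma 3.58.1 in R 4.3.3, with 6 group means, eBayes with a mean-variance trend, 6 residual and 3.89 prior degrees of freedom, and Benjamini-Hochberg adjustment over all tested genes in each comparison. The limma fit was tested on simulated data. Symbols came from a table of gene names (16250 IDs) and GENCODE 29 (49 IDs), and promoters from RefSeq (GRCh38.p14). Library values are given for HSPA5, XBP1, ERN1, EIF2AK3, ATF6, DDIT3 and the called members with the 6 largest differences in each of 7 main comparisons, 21 in all, and other lists name at most their 2 highest and 2 lowest called genes. The members and lists were chosen with earlier results of these data known. Replicate numbers were not taken as pairs: deviations of same-numbered libraries correlated at -0.048 to 0.077. Filters, offsets, the fit, re-centring, a replicate block and each library left out were the alternatives.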

Additional observations from a re-analysis of the deposited data

Results flagged for a closer look

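Effects that differed between the lines by a test of the difference itself are collected here, as the effect in PANC1 minus that in BXPC3 on the log2 scale. For GelMA against collagen the difference was negative for DDIT3 (-2.01), ERO1A (-1.24), HERPUD1 (-1.10), HSPA5 (-0.75), DNAJB9 (-0.69), ERN1 (-0.68), PPP1R15A (-0.57), XBP1 (-0.53), HYOU1 (-0.48), SDF2L1 (-0.46), EDEM1 (-0.42), ATF6 (-0.33), SEL1L (-0.31), P4HB (-0.28), HSP90B1 (-0.22), PDIA6 (-0.21), SEC61A1 (-0.16) and SSR1 (-0.13). It was positive for CALR (0.22). For 7.5% against 5% GelMA the difference was positive for DDIT3 (0.82), HSPA5 (0.45), HERPUD1 (0.50), PPP1R15A (0.50) and CALR (0.19), and negative for ERO1A (-0.80). DDIT3, ERO1A, HSPA5, HERPUD1, PPP1R15A and CALR differed between the lines in both effects. The concentration differences of HERPUD1, PPP1R15A and CALR missed the test in some alternatives. The GelMA differences of SEC61A1 and SSR1 missed the test in 12 and 14 of 20 alternatives, while the other 17 passed in all of them.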

How the results depend on the processing

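Direction held for all members called in the 7 main comparisons under every alternative run, apart from SEL1L in PANC1 against BXPC3, which was -0.028 after re-centring to a trimmed mean (0.075 as reported); re-centring moved the lines by about 0.1 log2 against each other. Counts of called members between 7.5% and 5% GelMA in PANC1 were 4 without the variance trend (11 as reported) and 2 to 12 with a library left out. For the concentration effect in PANC1 minus that in BXPC3 they were 3 without the trend (6 as reported) and 3 to 7 with a library left out. With a library left out, members called ran from 16 to 21 for GelMA in PANC1 (20 as reported), 12 to 20 in BXPC3 (18), 17 to 19 for the interaction (19) and 31 to 34 between the lines (32), and all genes called from 3623 to 5845 for GelMA in BXPC3 (5703), 1449 to 3162 between concentrations in PANC1 (2956), 1 to 33 in BXPC3 (13), and 659 to 1651 for the concentration interaction (1417). Without the trend that last count was 941. With a replicate block, members called were 20 for GelMA in PANC1 (8380 of all tested genes), 18 for GelMA in BXPC3 (5252) and 10 for concentration in PANC1 (2565). They were 0 for concentration in BXPC3 (0 of all tested genes), 18 for the GelMA interaction (5786), 4 for the concentration interaction (1057) and 32 between the lines (14457). The replicate numbers did not pair the libraries. The cause of these changes was not tested, and with 2 libraries a group and unknown depth, small differences rest on few values.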
